A study of Mus musculus with 6 samples.

Results

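Chemokines are small secreted proteins that steer leukocytes, and their receptors are G protein-coupled receptors on the migrating cells. Both families were examined in left ventricle of mice with sickle haemoglobin. Genes were taken by symbol from the array rows that carried exactly 1 gene symbol: all symbols of the Ccl, Cxcl, Ccr, Cxcr and Ackr series together with Cx3cl1, Cx3cr1, Xcl1 and Xcr1. This gave 54 genes of the 21506 tested, 33 of them ligands and 21 receptors, each with 1 array row. Cxcl2, Ccl19, Ccl21a, Ccl21b, Ccl21c and Ccl27b were not analysed here, and 2 rows that name Ccl27a beside other genes were left out for having several symbols.

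The study compared total RNA of left ventricle from 3 sickle and 3 control male mice, 1 mouse per Affymetrix Mouse Gene 2.0 ST array, at 10 to 14 weeks of age per the labels. Sickle mice, from The Jackson Laboratory like the controls, were of strain B6;129-Hbatm1(HBA)Tow and homozygous for Hbbtm2(HBG1,HBB*)Tow, which supplies human gamma-globin and the sickle form of human beta-globin, with human alpha-globin at the mouse alpha-globin locus. Control mice had the same Hbatm1(HBA)Tow allele and Hbbtm3(HBG1,HBB), with a human beta-globin that does not sickle, so both groups made human haemoglobin and neither was an ordinary wild type. Nothing more than 3 mice a group stands behind a p-value here, so it measures the spread between these animals only. The labels also describe electrocardiography under isoflurane and optical mapping of hearts, without saying whether the arrayed mice underwent either. Values are log2 signals after RMA, a difference of 1 unit being 2-fold, and array values are comparable between mice for 1 gene but not between genes.

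In the chemokine system, inflammatory ligands such as Ccl2 and Ccl5 are made by resident and blood-derived cells after injury and draw monocytes and lymphocytes into tissue, while homeostatic ligands such as Cxcl12 hold cells in place. Signalling receptors (Ccr, Cxcr, Cx3cr1, Xcr1) turn a bound ligand into movement through inhibitory G proteins. Atypical receptors (Ackr) bind ligands without that signal and remove or transport them. In heart muscle, Ccl2 acting on Ccr2 is known for bringing in monocytes, and Cx3cr1 marks tissue macrophages.

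Arrays had similar medians (5.50 to 5.54), while the upper quartile was 7.37 in sickle replicate 3 and 7.27 to 7.30 in the other arrays. Heart-muscle markers were bright in all arrays (mean level over 12 genes at least 12.30 in control and 12.11 in sickle). Sickle replicate 3 stood apart, with 340 genes over 2-fold above its group mates against 13 to 25 in every other array. Control replicate 3 held the atrial genes Sln and Myl7 at 8.08 and 7.75, where the other arrays had 3.10 to 3.36 and 4.31 to 4.78. Values without sickle replicate 3 stand beside the members they move. Without control replicate 3, Cxcr6 (0.38), Ccl11 (-0.50) and Ccl7 (-0.54) no longer had an unadjusted p under 0.05, and Ackr3 (0.02), Ackr4 (0.05), Cx3cl1 (0.04), Cx3cr1 (0.10), Cxcr3 (0.04) and Cxcl10 (0.04) had smaller differences, sickle minus control, than with it. Other differences grew in size without that array, among them Ackr2 (0.93), Cxcr5 (0.52), Ccr7 (0.49) and Cxcl9 (-0.66).

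No chemokine or receptor gene passed the test after adjustment over all genes: 0 of 54 had a limma adjusted p under 0.05, where 0.181% of all genes did. The smallest adjusted p was 0.0899, for Ccl5. At an unadjusted p under 0.05 there were 10 of 54 members, against 8.69% of all genes. They fell into 5 higher in sickle (Ccl5, Ackr2, Ccr7, Cxcr6 and Cxcr5; 4.30% of all genes were higher at this limit) and 5 lower (Ccl2, Ccl7, Ccl11, Ccl20 and Cxcl9; 4.38% of all genes). The 5 lower members were all ligands, and 4 of the 5 higher were receptors. The groups did not overlap for 10 of 54 members (Ccl5, Ackr2, Ccr7, Ccl20, Cxcr6, Ccl11, Cxcr5, Ackr1, Ccl8 and Ccl25), against 16.0% of all genes, which is a share near the background.

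These counts depended on single arrays. With sickle replicate 3 left out, 5 members had an unadjusted p under 0.05 (Ccl5, Ackr2, Ccr7, Ccl2 and Ccl11), against 9.20% of all genes, 0 passed the adjustment (0.0976% of all genes), and 12 had no overlap (26.9% of all genes). Without control replicate 1, 3 members were left at the unadjusted limit (Ccl5, Ackr2 and Cxcr6; 6.37% of all genes), and without control replicate 3 there were 7 (6.32% of all genes). Ccl5 and Ackr2 had an unadjusted p under 0.05 in each of the 6 fits that left out 1 array. For Ccr7 this held in 5 of the 6 fits, for Ccl2 and Cxcr6 in 4, for Ccl7, Ccl11 and Ccl20 in 3, for Cxcl9 in 2 and for Cxcr5 in 1.

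As a group the members had a median difference, sickle minus control, of 0.04, beside -0.01 over all genes. Of the ligands, 21 of 33 were below control with a median of -0.07. Of the receptors, 18 of 21 were above control with a median of 0.17, while 48.4% of all genes were above control. Many of these rows were dim: 6 of the 21 receptors and 14 of the 33 ligands reached the median brightness of all genes. The ligand median was close to that of all genes when certain arrays were left out, at -0.01 without sickle replicate 1 and -0.01 without control replicate 3, and the receptor median was 0.10 to 0.23 over the 6 fits that left out 1 array. Array by array, receptors stood at a median of 0.13, 0.12 and 0.15 above the control mean in the sickle mice, against -0.06 to 0.03 in the control arrays. That mean comes from the same control arrays, which therefore lie near it by construction. All 3 sickle arrays share it, so they are not independent of each other here. The ligand median was -0.14, -0.02 and -0.05 in the sickle arrays and -0.02 to 0.04 in control. The counts were 20 of 33 and 17 of 21 without sickle replicate 3, without control replicate 3 17 of 33 and 17 of 21, and under centring of each array on its median 21 of 33 and 17 of 21; with any 1 array left out they ran from 17 to 21 ligands and from 15 to 19 receptors. Most single differences were small: 38 of 54 members differed by less than 0.3, and the 95% interval of 30 members lay within a 1.5-fold change in either direction.

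**Figure D1:**
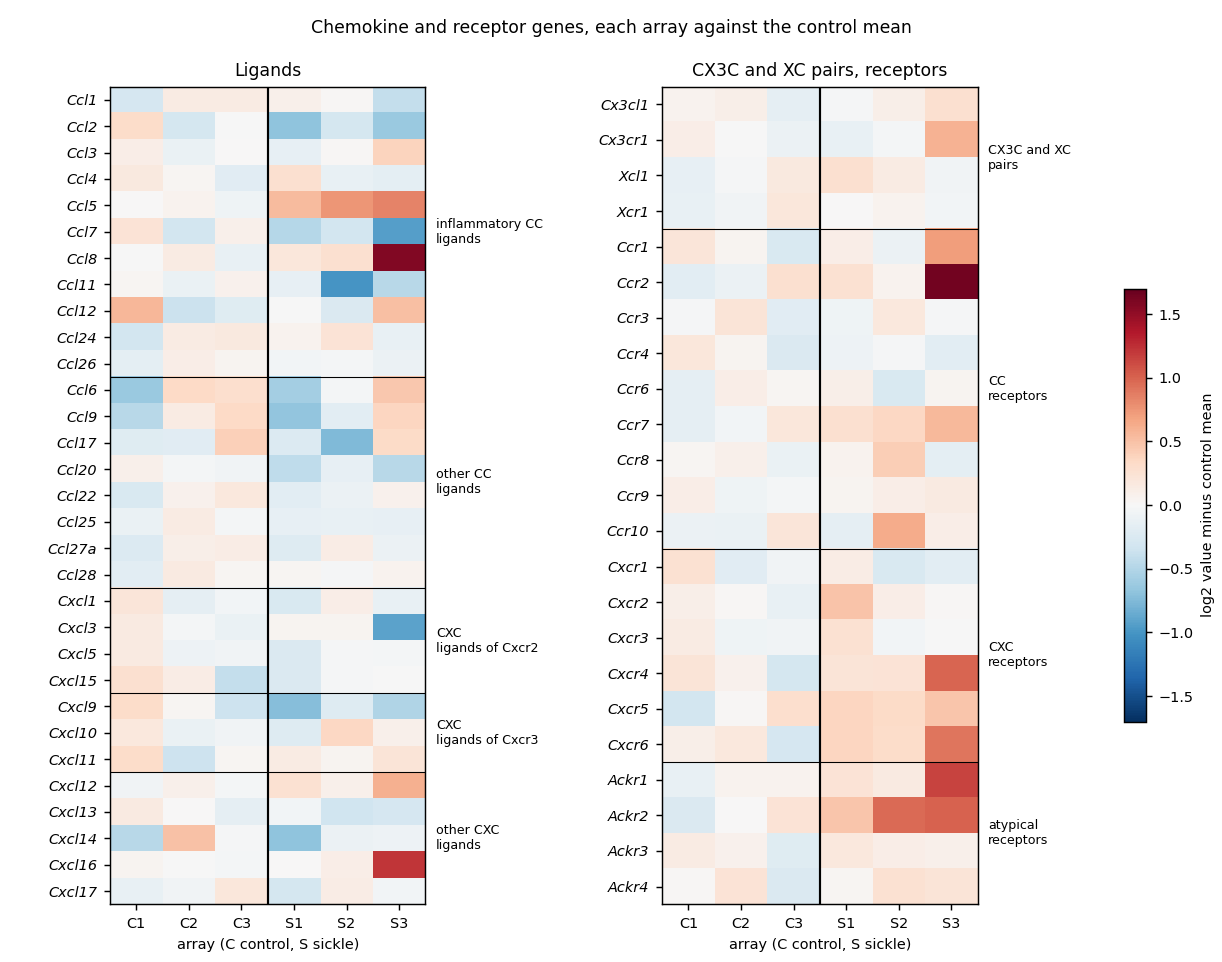
Log2 value of each of the 54 genes on each array minus the mean of the 3 control arrays (colour scale; C1 to C3 control, S1 to S3 sickle replicates), grouped by role. Ccl5 and Ackr2 are above control in every sickle array, Ccl8, Ccr2 and Cxcl16 are far above control in sickle replicate 3 alone, and Ccl2, Ccl7 and Ccl11 are below the control mean in every sickle array.

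Among the 11 inflammatory CC ligands, Ccl5 (RANTES, made by T cells, natural killer cells and activated macrophages) had the clearest difference. Its values were 5.97, 6.02 and 5.88 in control replicates 1, 2 and 3 and 6.50, 6.71 and 6.80 in the sickle arrays. Every sickle value lay above every control value, and the control arrays spanned a narrow range. The difference was 0.71 ± 0.11 (SE), a 1.64-fold higher level, with a 95% interval of 0.46 to 0.96 and an adjusted p of 0.0899. Without sickle replicate 3 it was 0.65 ± 0.11 (adjusted p = 0.164). With genes of at least median brightness alone in the fit, Ccl5 passed at an adjusted p of 0.0438, and over 14 alternatives its adjusted p ran from 0.0438 to 0.397.

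The ligand genes Ccl2, Ccl7 and Ccl11 lie next to each other in the RefSeq gene order and were all lower in sickle. Ccl2 (MCP-1, the main monocyte attractant) had 7.12, 6.51 and 6.81 in control and 6.13, 6.52 and 6.18 in sickle. Sickle replicates 1 and 3 lay below all controls, and sickle replicate 2 was level with control replicate 2. The difference was -0.53 ± 0.18 (adjusted p = 0.492), and -0.49 ± 0.20 without sickle replicate 3 (adjusted p = 0.535). Ccl7 (MCP-3, another Ccr2 ligand) had 6.58, 6.04 and 6.44 in control and 5.87, 6.04 and 5.41 in sickle, so the groups again met at replicate 2. It differed by -0.58 ± 0.20 (adjusted p = 0.511), and by -0.40 ± 0.17 without sickle replicate 3. Ccl11 (eotaxin, which attracts eosinophils) had 6.86, 6.71 and 6.90 in control and 6.68, 5.82 and 6.35 in sickle. Its groups did not overlap, but sickle replicate 1 was close to the lowest control, and most of the difference of -0.54 ± 0.21 (adjusted p = 0.551) came from replicates 2 and 3. It was -0.57 ± 0.24 with sickle replicate 3 left out.

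The next genes in that stretch did not share this. Ccl12, a mouse monocyte attractant, spanned 4.62 to 5.56 in control and 4.75 to 5.51 in sickle, and differed by 0.09 ± 0.28. Ccl8 (MCP-2) had 4.67, 4.82 and 4.56 in control and 4.88, 4.95 and 6.26 in sickle. All sickle values were above control, but replicate 3 was far above the others: the difference was 0.68 ± 0.34 (adjusted p = 0.612) and 0.23 ± 0.11 without that array (adjusted p = 0.583). Ccl1 differed by -0.10 ± 0.17. Over the 6 members from Ccl2 to Ccl1, 4 were lower, 2 higher and the median was -0.32.

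A second stretch runs from Ccl5 to Ccl4 and holds 5 members. Besides Ccl5, these were Ccl9 (-0.16 ± 0.29), Ccl6 (-0.06 ± 0.33), Ccl3 (0.09 ± 0.15) and Ccl4 (-0.00 ± 0.15), and only Ccl5 of the 5 had an unadjusted p under 0.05. Ccl6 and Ccl9, myeloid ligands of Ccr1, varied within groups more than between them. Ccl6 had 6.69, 7.67 and 7.61 in control and 6.74, 7.29 and 7.78 in sickle, and Ccl9 had 7.50, 8.11 and 8.31 in control and 7.30, 7.80 and 8.34 in sickle. Both genes were lowest in replicate 1 of each group and highest, in sickle, in replicate 3. Ccl24 (0.06 ± 0.16) and Ccl26 (-0.06 ± 0.11), ligands of the eosinophil receptor Ccr3, stayed within the spread of the arrays.

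**Figure D2:**
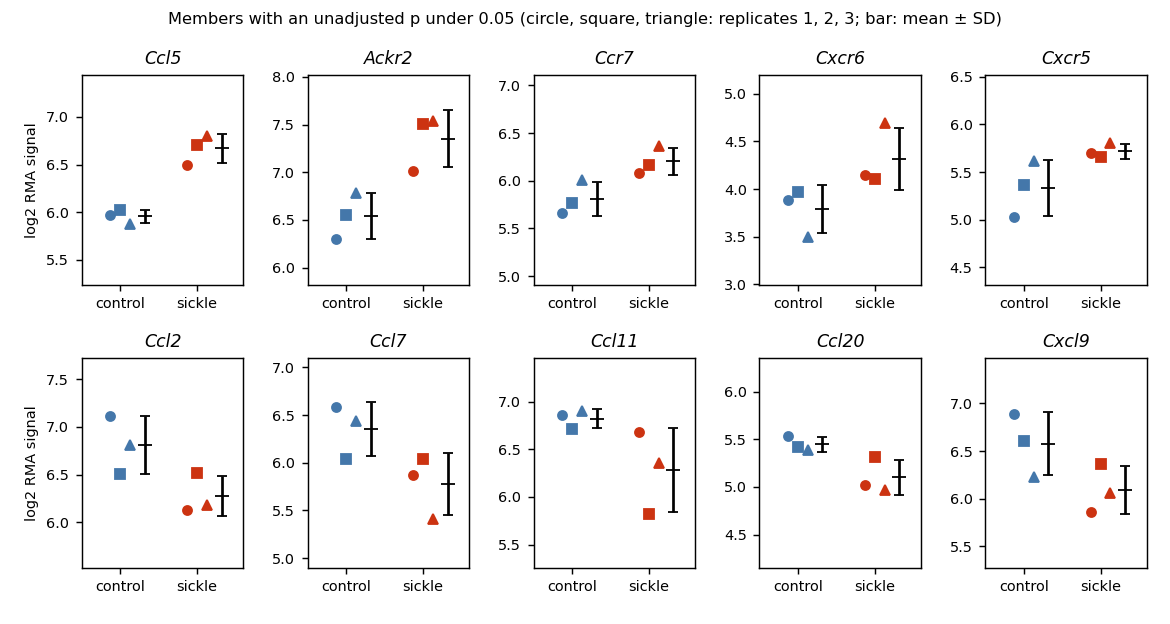
Log2 RMA signal of the 10 members with an unadjusted p under 0.05 in each control (blue) and sickle (red) array, with the mean and SD of each group beside the points; every panel spans the same height on its axis. Ccl5, Ackr2, Ccr7, Cxcr6 and Cxcr5 are higher in sickle without overlap, Ccl11 and Ccl20 are lower without overlap, and Ccl2, Ccl7 and Cxcl9 overlap between groups.

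Of the other 8 CC ligands, 7 were lower in sickle by small amounts. Ccl20, which draws Ccr6-bearing lymphocytes and dendritic cells, had 5.53, 5.42 and 5.39 in control and 5.02, 5.31 and 4.97 in sickle. All sickle values were below all controls, with sickle replicate 2 the nearest, and the difference was -0.35 ± 0.12 (adjusted p = 0.503; -0.28 ± 0.12 without sickle replicate 3). Ccl25, a ligand of gut-homing cells through Ccr9, was also lower without overlap, at 5.82, 6.07 and 5.89 in control and 5.79 to 5.80 in sickle, a difference of only -0.13 ± 0.10. Ccl17, Ccl22, Ccl27a and Ccl28, which act on Ccr4 and Ccr10, differed by -0.22 ± 0.28, -0.07 ± 0.14, -0.06 ± 0.14 and 0.02 ± 0.11. Ccl17 had a deeper difference without sickle replicate 3, -0.49 ± 0.23 (adjusted p = 0.579).

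Among CXC ligands, the 4 genes placed with the neutrophil receptor Cxcr2 (Cxcl1, Cxcl3, Cxcl5 and Cxcl15) were all slightly below control, from -0.27 to -0.09, and none had an unadjusted p under 0.05. Cxcl3, the lowest of these differences, had 2.49 to 2.75 in control, 2.65 in sickle replicates 1 and 2 and 1.69 in sickle replicate 3. Without that array its difference was 0.05 ± 0.11.

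The ligands of Cxcr3, a receptor of activated T cells, are induced by interferon. Cxcl9 had 6.89, 6.61 and 6.23 in control and 5.86, 6.36 and 6.06 in sickle. The values overlapped, since control replicate 3 lay below sickle replicate 2, and the difference was -0.48 ± 0.19 (adjusted p = 0.564; -0.47 ± 0.22 without sickle replicate 3). Cxcl10 had 5.10, 4.82 and 4.86 in control and 4.71, 5.28 and 5.02 in sickle, a difference of 0.08 with a 95% interval of -0.29 to 0.45. Cxcl11, listed as a transcribed pseudogene in the RefSeq reference assembly, which is not of the mixed background of these mice, differed by 0.14 ± 0.17.

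Of the other CXC ligands, the homeostatic Cxcl12 (SDF-1, made by stromal and endothelial cells) had 9.43, 9.59 and 9.47 in control and 9.75, 9.58 and 10.10 in sickle. Replicates 1 and 3 of sickle were above all controls and replicate 2 lay within them, for a difference of 0.32 ± 0.14 (adjusted p = 0.588; 0.17 ± 0.10 without sickle replicate 3). Cxcl16, a membrane-bound ligand and scavenger receptor, had 7.96, 7.91 and 7.88 in control and 7.92, 8.02 and 9.13 in sickle. Only sickle replicate 3 left the control range by more than 0.1, and the difference of 0.44 ± 0.29 (adjusted p = 0.684) became 0.06 ± 0.09 without it. Cxcl13, the B-cell attractant, differed by -0.22 ± 0.12, Cxcl14 by -0.29 ± 0.26 and Cxcl17 by -0.08 ± 0.14.

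Of the 17 signalling receptors, 14 were above control. Ccr7, the lymph-node homing receptor of naive T cells, B cells and mature dendritic cells, had 5.66, 5.76 and 6.01 in control and 6.08, 6.17 and 6.36 in sickle. There was no overlap, though sickle replicate 1 was close to control replicate 3, and the difference was 0.39 ± 0.13 (adjusted p = 0.487; 0.31 ± 0.13 without sickle replicate 3). Cxcr5, which places B cells in follicles, had 5.03, 5.36 and 5.62 in control and 5.70, 5.66 and 5.81 in sickle. The sickle arrays lay close together just above the highest control, a difference of 0.38 ± 0.15 (adjusted p = 0.564; 0.34 ± 0.17 without sickle replicate 3). Cxcr6, a receptor of effector T cells and natural killer T cells, had 3.89, 3.97 and 3.50 in control and 4.15, 4.11 and 4.69 in sickle, a difference of 0.53 ± 0.19 (adjusted p = 0.528; 0.34 ± 0.15 without sickle replicate 3). The groups did not overlap, and replicate 3 was the highest array.

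Lymphocyte markers were also higher in the sickle arrays, as Ccr7, Cxcr5, Cxcr6 and Ccl5 were. Cxcr3 and Ccr6, also receptors of lymphocytes, were near control (0.07 ± 0.12 and -0.04 ± 0.13). Of 15 measured T and natural killer cell markers, 13 were higher in sickle and 8 had an unadjusted p under 0.05, all 8 higher. Their mean level was 4.69 to 4.81 in control and 5.07 to 5.08 in sickle. Of 8 B-cell markers, 7 were higher and 5 had an unadjusted p under 0.05, with a mean level of 5.17 to 5.19 in control and 5.49 to 5.78 in sickle. Cd79a, a subunit of the B-cell receptor, was the only gene of both lists past the adjustment (1.12 ± 0.15, adjusted p = 0.0484), and its adjusted p was 0.0600 without sickle replicate 3. Arrays give no zero level, and 0 of the 15 T and natural killer cell markers and 1 of the 8 B-cell markers reached the median brightness of all genes. The part of these cells in the receptor and Ccl5 values was not tested, and in bulk tissue more cells of a type and more RNA per cell cannot be told apart.

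Monocyte and macrophage receptors followed sickle replicate 3. Ccr2, the receptor of inflammatory monocytes, had 5.30, 5.37 and 5.75 in control and 5.73, 5.53 and 7.11 in sickle. Sickle replicates 1 and 2 lay within the control range, and the difference of 0.65 ± 0.38 (adjusted p = 0.653) was 0.16 ± 0.16 without replicate 3 (95% interval -0.21 to 0.53). Cx3cr1 had 6.88, 6.76 and 6.67 in control and 6.65, 6.74 and 7.37 in sickle, a difference of 0.15 ± 0.19 that turned to -0.08 ± 0.10 without replicate 3. Its ligand Cx3cl1, made by endothelium, had 6.98, 7.02 and 6.77 in control and 6.91, 7.02 and 7.19 in sickle (0.12 ± 0.12). Ccr1, of monocytes and neutrophils, differed by 0.24 ± 0.22 and by 0.00 ± 0.16 without replicate 3.

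In the same array, 16 macrophage and monocyte markers stood at a median of 1.08 above the control mean, against -0.01 and 0.11 in sickle replicates 1 and 2. Their mean level was 7.15 to 7.40 in control and 7.23, 7.39 and 8.17 in sickle, and 13 of 16 were higher with 2 at an unadjusted p under 0.05 and 0 past the adjustment. Fibroblast markers showed the same array apart, with a mean level of 8.91 to 9.11 in control and 9.13, 9.16 and 10.67 in sickle. Neutrophil markers did not (median 0.11, -0.08 and 0.05 in sickle replicates 1, 2 and 3). The part of these cells in the replicate 3 values was not tested.

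**Figure D3:**
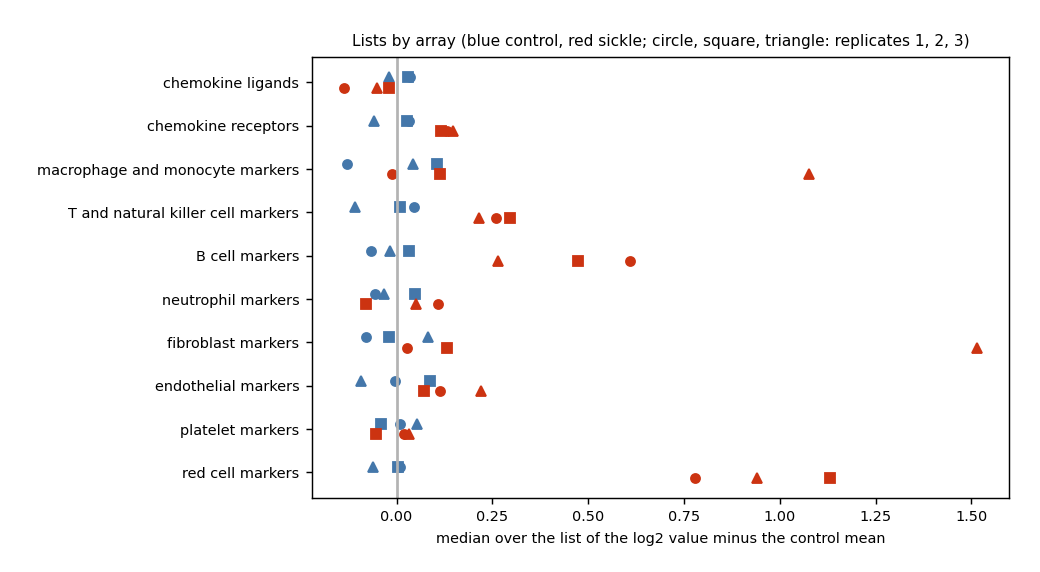
Median, over each list, of the log2 value minus the control mean, for each control (blue) and sickle (red) array. Receptors and T, natural killer and B-cell markers are above control in all 3 sickle arrays, ligands are slightly below zero in them, and macrophage (1.08) and fibroblast (1.52) markers stand out in sickle replicate 3 alone.

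Cxcr4, the Cxcl12 receptor of many blood and progenitor cells, had 7.28, 7.12 and 6.75 in control and 7.27, 7.28 and 8.03 in sickle. Sickle replicates 1 and 2 were level with the highest control, and the difference was 0.48 ± 0.23 (adjusted p = 0.602), or 0.23 ± 0.16 without replicate 3. Cxcr3 had 5.05, 4.84 and 4.86 in control and 5.18, 4.87 and 4.91 in sickle (0.07 ± 0.12, 95% interval -0.21 to 0.35). The neutrophil receptors Cxcr2 and Cxcr1 differed by 0.21 ± 0.14 and -0.10 ± 0.15. Ccr3, Ccr4, Ccr6, Ccr8, Ccr9, Ccr10 and Xcr1 differed by amounts from -0.09 to 0.19, and Xcl1, the ligand of Xcr1, by 0.12 ± 0.13.

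All 4 atypical receptors were above control, Ackr3 and Ackr4 by little. Ackr2, a scavenger that takes up and degrades inflammatory CC ligands, Ccl2, Ccl5, Ccl7 and Ccl11 among them, had the largest difference of any member. It had 6.30, 6.55 and 6.78 in control and 7.01, 7.50 and 7.54 in sickle. Every sickle value was above every control value, and the difference was 0.81 ± 0.18, 1.75-fold, with a 95% interval of 0.39 to 1.23 (adjusted p = 0.293). Without sickle replicate 3 it was 0.71 ± 0.19 (adjusted p = 0.369), and its adjusted p ran from 0.150 to 0.731 over 14 alternatives. The coding genes on either side of it, Higd1a and Cyp8b1, differed by -0.05 and 0.32 and had unadjusted p-values of 0.633 and 0.126.

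Ackr1, the Duffy antigen receptor of red cells and venular endothelium, had 3.83, 4.02 and 4.02 in control and 4.18, 4.11 and 5.10 in sickle. The groups did not overlap, but replicate 3 carried most of the difference of 0.51 ± 0.25 (adjusted p = 0.604; 0.19 ± 0.10 without it). Red-cell markers were higher in all 3 sickle arrays, with list medians of 0.78, 1.13 and 0.94 over 14 genes and 6 genes past the adjustment (3 without sickle replicate 3). Endothelial markers had a mean level of 9.10 to 9.32 in control and 9.35 to 9.53 in sickle, but their list medians overlapped. The medians over 11 genes were -0.09 to 0.09 in control and 0.11, 0.07 and 0.22 in sickle. Vwf had the largest difference of the 11 (1.13 ± 0.22), and 2 were lower. Whether the red-cell or the endothelial values bear on Ackr1 was not tested. Ackr3, the scavenger of Cxcl12, had 7.69, 7.63 and 7.35 in control and 7.74, 7.67 and 7.64 in sickle (0.13 ± 0.12), and Ackr4, which clears Ccr7 ligands, differed by 0.17 ± 0.14. Without control replicate 3, the lowest control array for both, these differences were 0.02 and 0.05.

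RefSeq promoter entries (build GRCm38.p6) matched 40 of the 54 members, and 4 of the 10 members with an unadjusted p under 0.05. The 250 bases before the start are shown for the 3 of those 4 in which a searched motif occurred: Ackr2, the member with the largest difference, and the lower ligands Ccl20 and Cxcl9. Capitals mark matches to the NF-kB consensus in Ackr2 and Ccl20, and to the TATA motif (TATAAA) in Cxcl9. The sequences run 5′ to 3′ on the strand of the gene.
Ackr2 (chr9:121898105-121898354, plus strand): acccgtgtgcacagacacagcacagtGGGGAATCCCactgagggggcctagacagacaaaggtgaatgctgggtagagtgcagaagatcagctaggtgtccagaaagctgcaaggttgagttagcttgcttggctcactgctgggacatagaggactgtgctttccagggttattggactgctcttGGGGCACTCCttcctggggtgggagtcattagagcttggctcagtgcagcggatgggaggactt
Ccl20 (chr1:83116516-83116765, plus strand): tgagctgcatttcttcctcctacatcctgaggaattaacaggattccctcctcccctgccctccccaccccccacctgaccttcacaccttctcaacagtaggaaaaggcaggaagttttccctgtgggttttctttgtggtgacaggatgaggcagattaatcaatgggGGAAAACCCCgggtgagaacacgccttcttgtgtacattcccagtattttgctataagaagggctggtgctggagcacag
Cxcl9 (chr5:92328080-92328329, minus strand): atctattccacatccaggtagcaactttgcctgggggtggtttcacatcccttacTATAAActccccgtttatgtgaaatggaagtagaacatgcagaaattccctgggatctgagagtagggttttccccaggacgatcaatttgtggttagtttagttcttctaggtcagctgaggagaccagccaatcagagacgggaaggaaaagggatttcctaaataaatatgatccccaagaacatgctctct

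In Ackr2 the NF-kB consensus matched at 224 and 64 bases before the start, the first on both strands, and in Ccl20 it matched at 80 bases before it, on the opposite strand. In Cxcl9 the TATA motif lay 195 bases before the start. Both strands of the same window were searched for these motifs and for the GAS (TTCNNNGAA) and AP-1 (TGANTCA) motifs in all 32851 entries. The NF-kB consensus occurred in 10 of 44 entries of members (22.7%) and in 7.25% of all entries, TATAAA in 29.5% and 12.4%, AP-1 in 11.4% and 6.75%, and GAS in 6.82% and 7.02%. Several members are copies of each other by gene duplication, so these shares are a description. Both Ackr2 (higher in sickle) and Ccl20 (lower) had an NF-kB match, and whether a match bears on either difference was not tested. Ccl5, Ccr7, Ccl2, Ccl7, Ccl11 and Cxcr5 had no promoter entry, so their motifs were not seen.

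**Figure D4:**
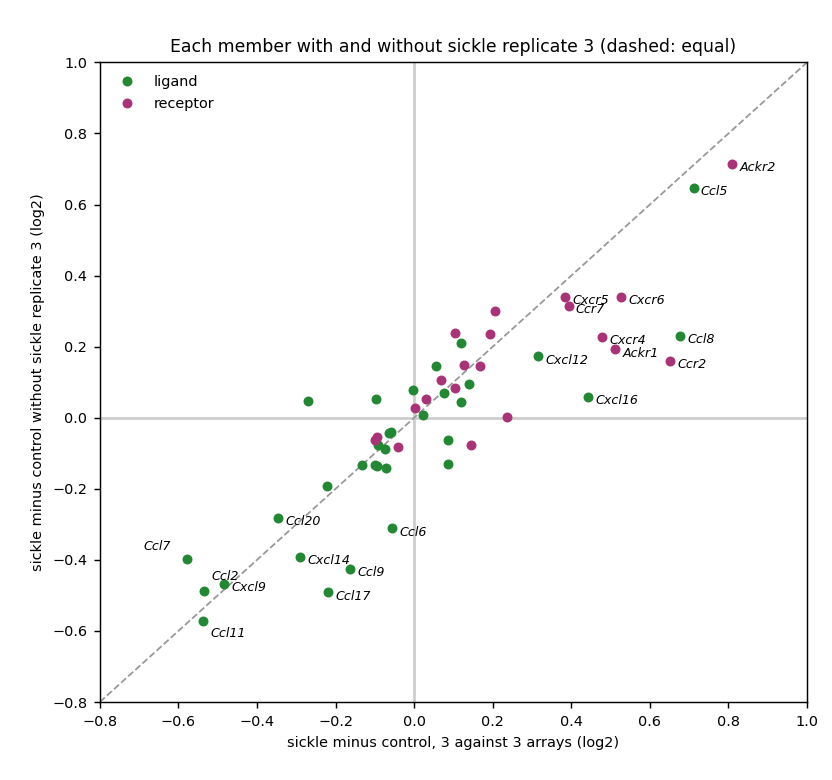
Sickle minus control difference of each member over 3 against 3 arrays (horizontal) and without sickle replicate 3 (vertical), on the log2 scale, for ligands (green) and receptors (purple); the dashed line marks equal values. Ackr2 and Ccl5 stay near the line at 0.81 and 0.71, while Ccl8, Ccr2, Cxcl16, Cxcr4 and Ackr1 lie well below it.

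At least a 1.5-fold difference was seen for 4 of 54 members (Ccl5, Ackr2, Ccl8 and Ccr2), all higher, where 1.84% of all genes differed by as much. Leaving out sickle replicate 3, there were 2 (Ccl5 and Ackr2), against 1.38% of all genes. Sickle replicate 3 was the highest of the 6 arrays for 18 of 54 members (33.3%, against 23.8% of all genes), among them 10 of the 21 receptors and 8 of the 33 ligands. It was over 1 unit above every other array for Ccl8, Ccr2 and Cxcl16. Leaving it out turned the sign of 6 members, Cxcl3, Cx3cr1, Ccl3, Ccl1, Ccl12 and Ccl4, whose differences ran from -0.27 to 0.15 with it and from -0.13 to 0.08 without it.

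Set beside each other, receptors and ligands differed in how they paired. For Cxcr4 with Cxcl12 and Cxcr6 with Cxcl16, both partners were higher, and for each of these 4 genes sickle replicate 3 was the highest array. For Ccr2, the receptor was higher (0.65) while its ligands Ccl2 and Ccl7 were lower, Ccl8 was higher (0.68) and Ccl12 was near control (0.09). Without sickle replicate 3, Ccr2 was at 0.16 and Ccl8 at 0.23. Ccr1 was at 0.24 (0.00 without that array) beside its ligand Ccl5 at 0.71. Ccr3 was at 0.03 beside its ligand Ccl11 at -0.54. Cxcr5 was higher and its ligand Cxcl13 lower (0.38 and -0.22). Ccr6 and Cxcr3 were near control (-0.04 and 0.07) while their ligands Ccl20 and Cxcl9 were lower. Cx3cr1 with Cx3cl1 and Xcr1 with Xcl1 showed no difference beyond the spread of the arrays.

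**Figure D5:**
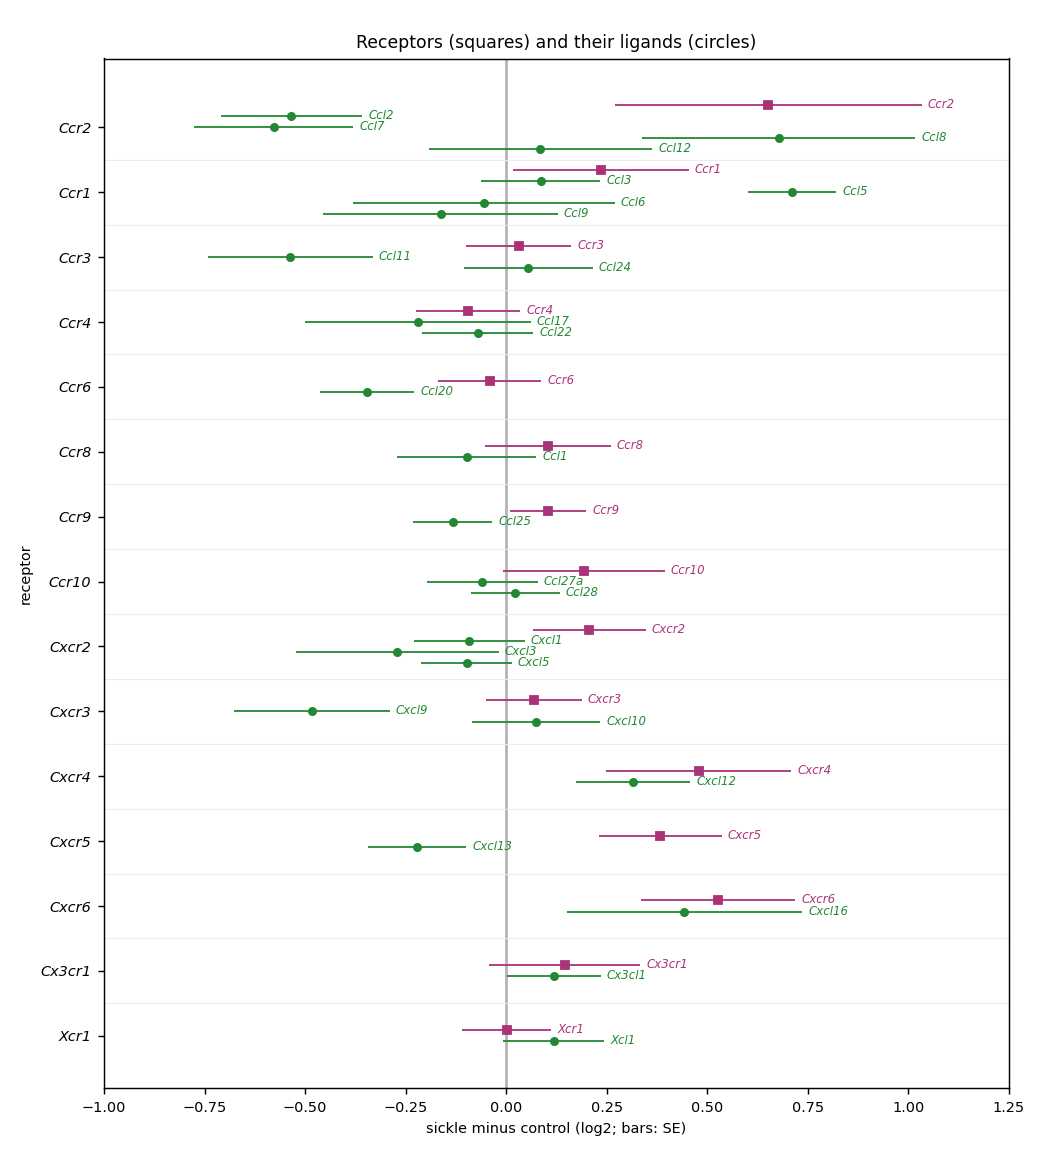
Sickle minus control difference on the log2 scale with its standard error for 15 receptors (squares) and ligands placed with them (circles); ligands that bind several receptors are shown once. Cxcr4 with Cxcl12 and Cxcr6 with Cxcl16 lie to the right of zero, while Ccl2 and Ccl7 lie to the left and Ccr2 to the right.

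Among chemokine relatives outside the symbol rule, Ccrl2, a non-signalling receptor that presents chemerin, had 7.58, 7.81 and 7.72 in control and 7.18, 7.53 and 7.21 in sickle, a difference of -0.40 ± 0.13 without overlap (adjusted p = 0.483). The platelet chemokine Ppbp differed by 0.61 ± 0.23 (adjusted p = 0.551; 0.38 without sickle replicate 3) and Cklf by 0.28 ± 0.11. Pf4, the other platelet chemokine, differed by 0.13 ± 0.17. Of 10 relatives measured, 0 passed the adjustment, 7 were above control with a median of 0.11, and 2 higher and 1 lower had an unadjusted p under 0.05. Leaving out sickle replicate 3, 3 of 10 were above control with a median of -0.07, and 0 higher and 2 lower had an unadjusted p under 0.05.

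Genes that carry the receptor signal were mostly above control. Of 34 measured, 32 were above control (48.4% of all genes were) with a median of 0.26, and 0 passed the adjustment. Of them 9 had an unadjusted p under 0.05, all 9 higher (26.5%, against 8.69% of all genes). Leaving out sickle replicate 3, 26 of 34 were above control (50.2% of all genes) with a median of 0.10. At the unadjusted limit there were then 2 higher and 1 lower of 34, where 9.20% of all genes passed it, so much of the pattern rested on that array. Dock2, a Rac activator needed for lymphocyte migration, had 5.85, 5.71 and 5.93 in control and 6.36, 6.38 and 7.07 in sickle, a difference of 0.77 ± 0.19 (adjusted p = 0.383; 0.54 without sickle replicate 3). Its groups did not overlap, and replicate 3 was the highest. Rac2, a small GTPase of blood cells, differed by 0.36 ± 0.12 and Rgs16, which shortens G protein signals, by 0.49 ± 0.17.

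Genes that induce chemokines (cytokines, their receptors, NF-kB and interferon factors) had a median of 0.12, with 21 of 29 higher and 0 past the adjustment. At an unadjusted p under 0.05 there were 2, both higher (6.90%, against 8.69% of all genes). Tlr4, the endotoxin receptor, differed by 0.37 ± 0.12, Ikbkb, an NF-kB kinase, by 0.26 ± 0.10 and Ifnb1, interferon beta, by -0.29 ± 0.13. Without sickle replicate 3 the median of this list was 0.01, with 16 of 29 higher. Genes of chemokine presentation on heparan sulfate and of chemokine cleavage had a median of 0.15, with 14 of 18 higher and 0 past the adjustment. At an unadjusted p under 0.05 there were 2 (11.1%, against 8.69% of all genes). The median of this list was 0.07 with sickle replicate 3 left out, and 11 of 18 were higher. Its 3 genes with the smallest p were Hspg2, the perlecan core protein (0.36 ± 0.10), and the syndecans Sdc1 (0.32 ± 0.13) and Sdc3 (0.29 ± 0.13). The largest difference in the list, 0.64, was that of another gene.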

How the data were processed

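Log2 signals were deposited by the authors after RMA, a method that corrects background, equalises array distributions and summarises probes, per the submitters' processing notes, which name no version. That the scale is log2 follows from the range of the values. For scan batches and RMA settings, nothing was given in the sources used here. The table held 25293 rows, of which 22030 had exactly 1 symbol in the platform annotation; the brightest row stood for each of 21506 genes. Limma 3.58.1 in R 4.3.3 (lmFit, eBayes; 4 residual and 3.61 prior degrees of freedom) compared sickle with control, two-sided, group as the only term, Benjamini-Hochberg adjustment over all genes, called at 0.05. Differences are sickle minus control with moderated standard errors, and intervals are 95%. Arrays give no read depth, so their number limits the precision. Each array is a mouse of its own per the labels. Promoter sequences are from RefSeq (GRCm38.p6). The fit was tested on simulated data, and how often it would miss differences of the size seen here is not given.

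The members, lists and tests were chosen with earlier results of these data known. Array values are given for members past the adjustment, at an unadjusted p under 0.05, at least 1.5-fold different with or without sickle replicate 3, or over 1 unit higher in that array, and for a set of well-known members; the others are given by difference (array values of Ccl6, Ccl9, Ccl12, Ccl25 and Cxcl3 were added after they were seen), and in each pathway list the 3 genes with the smallest p are named, other genes having been chosen after their values were seen. Counts at an unadjusted p, counts without overlap and neighbouring genes were added after the data were seen. Alternatives were other row summaries, a brightness filter, normalisation, variance models, weights per array, a replicate block, and leaving out each array. Figures used matplotlib 3.10.9.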

Additional observations from a re-analysis of the deposited data

How the results depend on the processing

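The count of members past the adjustment was 0 as reported and in every alternative but one: with genes of at least median brightness, 1 member (Ccl5) passed, in a fit with fewer genes tested. Members at an unadjusted p under 0.05 numbered 10, 4 without shared variance, and 3 to 12 when 1 array was left out. Members without overlap between groups numbered 10, 5 of 20 among the bright genes (21.1% of all bright genes), and 12 to 20 when 1 array was left out, where 24.5% to 28.0% of all genes had no overlap; the 20 came without control replicate 1 (37.0% of members, 24.5% of all genes). Over all genes the count of calls was 39, 0 without shared variance (4 residual degrees of freedom alone), 12 with the replicate block, and 4 to 36 when 1 array was left out. The median over members was 0.04, 0.087 over the bright members alone, and 0.0098 to 0.062 when 1 array was left out. Of 287 values of the 21 members named by the rule, 283 kept direction and side of the threshold. Part of this was fixed in advance, since row means, variance models and the replicate block could not change a difference. Apart from Ccl5, no limma adjusted p of these members was under 0.150 in any alternative, so the side of the threshold says little. Reversed were Cx3cr1 (-0.077 without sickle replicate 3), Cxcl10 (-0.064 without sickle replicate 2) and Cxcr3 (-0.029 without sickle replicate 1), whose highest values with 1 array left out were 0.280, 0.222 and 0.135; the cause was not tested. Of the 33 other members, 23 took both signs over the fits that left out 1 array, Ccl6, Ccl9 and Cxcl3 among them. Deviations of same-numbered arrays correlated at 0.11, -0.05 and 0.05 over all genes, so the numbers were not taken as pairs; with the replicate block 0 members passed and 11 had an unadjusted p under 0.05. The standard error of a member's difference ran from 0.10 to 0.38 (median 0.15), and a difference needed 2.33 standard errors for an unadjusted p of 0.05.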
